A study of Homo sapiens with 15 samples.

Results

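Messenger RNA of 8 ligands of the TNF superfamily was measured in THP-1 cells, a human monocytic leukemia line labelled wild type, after stimulation with bacterial extracellular vesicles (BEVs). The ligands are *TNF*, *LTA*, *LTB*, *TNFSF10*, *TNFSF13*, *TNFSF13B*, *TNFSF15* and *TNFSF18*, which were taken from the count table by their gene symbols. They are 8 of 60286 genes listed, and all 8 passed the filter on low counts that left 17198 genes for testing. There were 15 RNA-seq libraries in 5 groups of 3. Non-stimulated cells (PBS, labelled NC) received buffer. BEVs of *E. coli* were given at 1 μg/mL, from ultracentrifugation (UC) in the EUC group and from epsilon-poly-L-lysine precipitation (PL) in the EPL group. BEVs of *S. aureus* were given at 10 μg/mL, from UC in the SUC group and from PL in the SPL group. All cells were grown in RPMI medium with serum and antibiotics, and the incubation lasted 6 hours by the study's methods, while the labels give Day 0. Species and dose changed together and cannot be told apart. One leukemia line was used, and the study describes stimulation in wells in triplicate without saying whether the 3 libraries of a group came from independently grown cultures, so p-values measure only the spread between these libraries, which may be technical.

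Ligands of this family are made as membrane proteins that act as trimers, and several are cut from the cell surface to circulate. Each binds 1 or more receptors of the TNF receptor superfamily, which pass the signal to NF-kappa B, to MAP kinases or, for receptors with a death domain, to caspases. In monocytes and macrophages, bacterial products sensed by Toll-like receptors are a classical trigger of *TNF* transcription, and *TNFSF10* and *TNFSF13B* are known as genes that interferon induces.

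Libraries held 14399421 to 16637345 counted reads, with a median of 15831655. Values are given as CPM, which are counts scaled to a common library size by the TMM method, and comparisons between genes use CPM per kilobase of merged exon. A call required a change of 2-fold or more together with an edgeR adjusted p no larger than 0.01. All 8 monocyte markers were present, with a summed level of 1010 to 1030 CPM in PBS libraries and 1480 to 2000 CPM in stimulated ones. Most of this rise was the myeloid factor *SPI1*, with 470 CPM in PBS cells and 959 to 1200 CPM as stimulated group means. *SPI1* was called higher in all 4 stimulated groups. The median log2 fold change of the 8 markers was below 0 in each, at -0.273, -0.0796, -0.0633 and -0.151 in EUC, EPL, SUC and SPL. *MPO*, an enzyme of early myeloid cells, was called lower in all 4, from 10.2 CPM in PBS cells to 3.37 CPM in EUC. The 6 T cell markers summed to at most 1.34 CPM, with *CD3D* and *CD3G* at 0 in every library. The one T cell marker tested, *TRAC*, was called higher in EUC and SUC, at 0.758 and 0.655 CPM against 0.12 CPM in PBS cells. It passed the filter on low counts only through stimulated libraries, and its part in the results was not tested. The 5 NK cell markers summed to 23.8 to 30.7 CPM. This was mostly *NKG7* and *NCAM1*, with group means of 13 to 17.3 CPM and 9.4 to 11.8 CPM. The 5 B cell markers summed to 9.46 to 11.1 CPM in PBS libraries and 12.2 to 27.0 CPM in stimulated ones, mostly through *PAX5*, which was called higher in all 4 groups, while *MS4A1* was at 0 throughout EUC and SUC. In a clustering of log2 CPM, SUC3, EPL1, EUC3 and EUC2 separated from the remaining 8 stimulated libraries. They were spread unevenly over the groups, with more from EUC than from EPL or SUC and none from SPL. Results that move without these 4 libraries are given with and without them below, and with them aside EUC is 1 library, assumed to vary like the others.

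*TNF*, *LTA* and *LTB* stand next to each other in the class III region of the major histocompatibility complex. On hg38 (GENCODE release 44) *LTA* spans positions 31572054 to 31574324 and *TNF* positions 31575565 to 31578336 of the forward strand of chromosome 6, and *LTB* spans 31580525 to 31582522 of the reverse strand. A gap of 1240 bp separates *LTA* from *TNF* and one of 2188 bp separates *TNF* from *LTB*, so all 3 lie within 10469 bp. The other members lie on separate chromosomes, *TNFSF10* on 3, *TNFSF13* on 17, *TNFSF13B* on 13, *TNFSF15* on 9 and *TNFSF18* on 1.

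Start-site windows of the 5 most abundant members after stimulation are shown (the first listed, except the second of *LTA*), because most of the summed ligand level comes from them. They include *TNF*, *TNFSF10* and *TNFSF13B*, on which the comparison of the species turns. Each window runs from 250 bases before to 50 bases after a RefSeq start (GRCh38.p14), 5′ to 3′ on the gene's strand. All 8 members had at least 1 such window, and both *TNFSF13B* windows lie within the GENCODE gene, downstream of its first base. Capitals mark matches on either strand to the motif of NF-kappa B, to AP-1 (TGANTCA), to the interferon response element core (GAAA, 2 bases of any kind and GAAA again) or to PU.1 (GAGGAA).
TNF, chr6:31575315-31575614, forward strand: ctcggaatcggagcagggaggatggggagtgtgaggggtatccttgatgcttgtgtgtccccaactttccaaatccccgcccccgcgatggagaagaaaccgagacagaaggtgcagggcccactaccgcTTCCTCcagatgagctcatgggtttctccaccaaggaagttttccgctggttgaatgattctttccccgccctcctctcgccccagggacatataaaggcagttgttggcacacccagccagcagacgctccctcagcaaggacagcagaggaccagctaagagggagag
LTA, chr6:31572039-31572338, forward strand: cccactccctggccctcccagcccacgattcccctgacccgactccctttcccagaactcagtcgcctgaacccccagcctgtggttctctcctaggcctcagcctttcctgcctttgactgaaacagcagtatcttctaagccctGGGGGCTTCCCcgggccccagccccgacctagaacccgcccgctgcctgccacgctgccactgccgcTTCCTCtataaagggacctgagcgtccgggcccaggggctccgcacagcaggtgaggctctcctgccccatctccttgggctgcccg
LTB, chr6:31582376-31582675, reverse strand: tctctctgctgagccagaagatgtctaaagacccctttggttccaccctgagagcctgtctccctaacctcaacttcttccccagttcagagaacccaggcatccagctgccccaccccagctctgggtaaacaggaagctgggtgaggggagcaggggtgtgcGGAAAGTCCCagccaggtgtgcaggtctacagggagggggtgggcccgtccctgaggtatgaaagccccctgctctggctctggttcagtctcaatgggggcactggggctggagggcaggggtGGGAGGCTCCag
TNFSF10, chr3:172523381-172523680, reverse strand: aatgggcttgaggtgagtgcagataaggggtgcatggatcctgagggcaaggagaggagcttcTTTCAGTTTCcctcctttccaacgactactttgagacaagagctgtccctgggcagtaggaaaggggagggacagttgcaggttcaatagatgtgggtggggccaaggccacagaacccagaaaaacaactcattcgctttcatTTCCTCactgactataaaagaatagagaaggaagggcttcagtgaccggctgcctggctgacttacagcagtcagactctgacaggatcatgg
TNFSF13B, chr13:108269379-108269678, forward strand: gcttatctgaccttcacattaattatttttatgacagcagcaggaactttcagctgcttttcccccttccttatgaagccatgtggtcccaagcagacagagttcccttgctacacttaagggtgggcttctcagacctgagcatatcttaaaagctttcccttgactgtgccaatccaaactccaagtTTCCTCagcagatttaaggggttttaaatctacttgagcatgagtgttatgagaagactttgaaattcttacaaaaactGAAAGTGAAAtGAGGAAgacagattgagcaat
Matches to NF-kappa B occurred in 11.3% of all 35116 windows of the table, to AP-1 in 7.71%, to the interferon core in 3.57% and to PU.1 in 27.9%. *LTB* had an NF-kappa B match from -86 to -77 and another from 38 to 47, counted from the start, and the printed window of *LTA* had an overlapping pair from -104 to -94, while its other window had no match to any of the motifs. The *TNFSF10* and *TNFSF13B* windows each had an interferon core match, on the reverse strand from -187 to -178 and on the forward strand from 18 to 27. The *TNF* window matched PU.1 only, from -120 to -115. PU.1 also matched in the printed windows of *LTA* (-37 to -32), *TNFSF10* (-43 to -38) and *TNFSF13B* (-61 to -56 and 29 to 34). Of the other members, *TNFSF13* had one window that matched NF-kappa B and PU.1 and one that matched PU.1 only, the window of *TNFSF15* matched AP-1 from -120 to -114, and that of *TNFSF18* matched none. A match is a run of letters and not a measured binding site, and a missing match speaks only of this window.

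Per length, *TNF* was the most abundant of the ligands in every group, followed by *LTB* and *TNFSF13B*, and in every group the libraries of these 3 did not overlap. In PBS cells *TNF* had 10.8 ± 0.493 CPM per kb (SD, n = 3), *LTB* 7.46 ± 0.587, *TNFSF13B* 2.92 ± 0.186 and *TNFSF10* 2.38 ± 0.205. *TNFSF13* at 0.757 ± 0.0856 and *LTA* at 0.641 ± 0.0583 overlapped there, *TNFSF15* had 0.0629 ± 0.0354, and *TNFSF18* had no count. After stimulation *TNF* reached 115 to 209 CPM per kb as group means, *LTB* 26.6 to 45.4 and *TNFSF13B* 11.6 to 17.3. The order of *TNFSF10* and *LTA* differed by species. *TNFSF10* was the fourth of the ligands in EUC and EPL, with libraries that overlapped those of *LTA*. *LTA* was the fourth in SUC, where the libraries did not overlap, and in SPL, where they did. In all stimulated groups *TNFSF13* and *TNFSF15* overlapped.

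**Figure D1:**
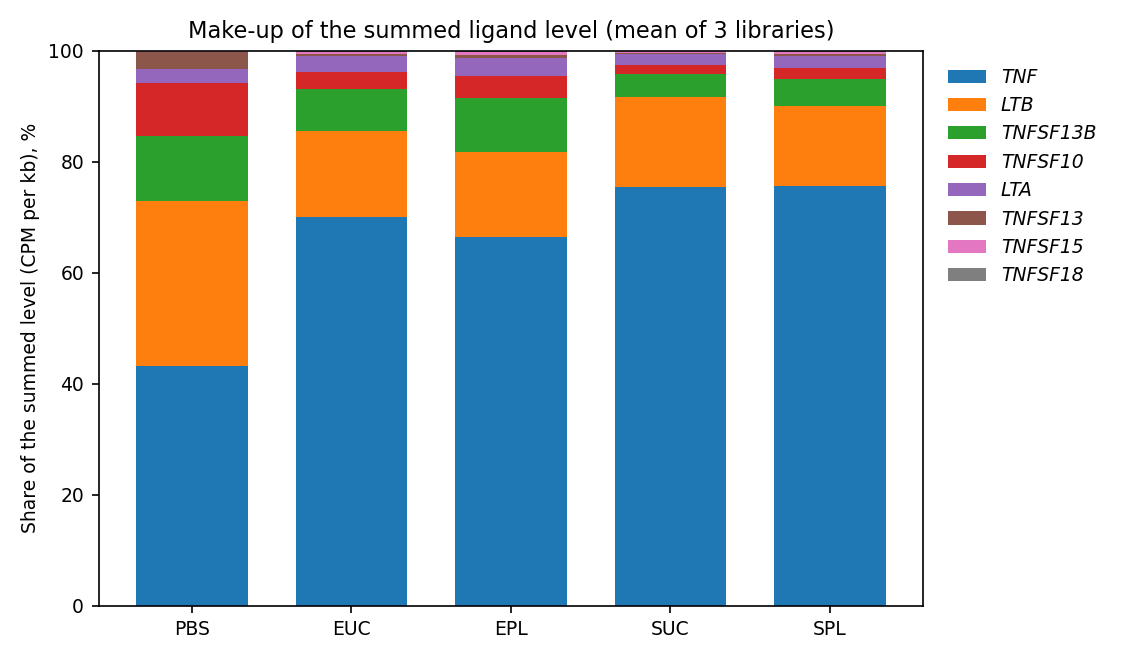
Share of each ligand in the summed level of the 8 ligands (CPM per kb, mean of 3 libraries, in percent), stacked for each group. *TNF* takes 43.2% in PBS cells and 66.4% to 75.6% after stimulation, while the share of *LTB* goes from 29.8% to between 14.5% and 16.1%.

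The summed level of the ligands was 25.1 ± 0.479 CPM per kb in PBS cells and 234 ± 45.3, 173 ± 9.67, 278 ± 44.3 and 246 ± 11.0 in EUC, EPL, SUC and SPL. The plot of shares shows that *TNF* made up 43.2% of this sum in PBS cells (41.4% to 44.2% over libraries) and 70.0%, 66.4%, 75.5% and 75.6% in the stimulated groups. *TNFSF13B* held 11.7% in PBS cells, 7.54% in EUC and 9.64% in EPL, but 4.24% in SUC and 4.89% in SPL. These shares are parts of 1 sum, so a rise of *TNF* lowers the others.

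The first question was which ligands changed when cells met BEVs. In EUC 7 of 8 members were called higher, where 9.43% of all tested genes were called higher, and none was called lower. The count was 7 of 8 in EPL (9.38% of all genes), 6 of 8 in SUC (6.82%) and 6 of 8 in SPL (7.76%). Without the fold threshold, 7 of 8 passed in every group, where 30.5%, 29.2%, 21.5% and 23.9% of all genes did in EUC, EPL, SUC and SPL. *TNF*, *LTA*, *LTB*, *TNFSF13B*, *TNFSF15* and *TNFSF18* were called higher in all 4 groups, as were 6.33% of tested genes. Of these, *TNFSF15* and *TNFSF18* passed the filter on low counts only through stimulated libraries, so their being tested depended on their level there. *TNFSF10* was called in the *E. coli* groups only, and *TNFSF13* in none. The median log2 fold change of the members was 2.95, 2.85, 2.81 and 2.68 in the same order, beside medians of all tested genes between -0.00652 and 0.00673. For 7 members, every stimulated library of each group lay above every PBS library, which held for 25.9%, 26.2%, 24.2% and 26.9% of tested genes in EUC, EPL, SUC and SPL. The 4 comparisons share the same 3 PBS libraries, so they are not independent of each other. Because the 8 members were chosen with earlier results of these data known, the shares of all genes are given for scale only. Of 5 other ligands of the superfamily that were tested, no more than 1 was called higher in any group, so the counts do not describe the whole family.

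**Figure D2:**
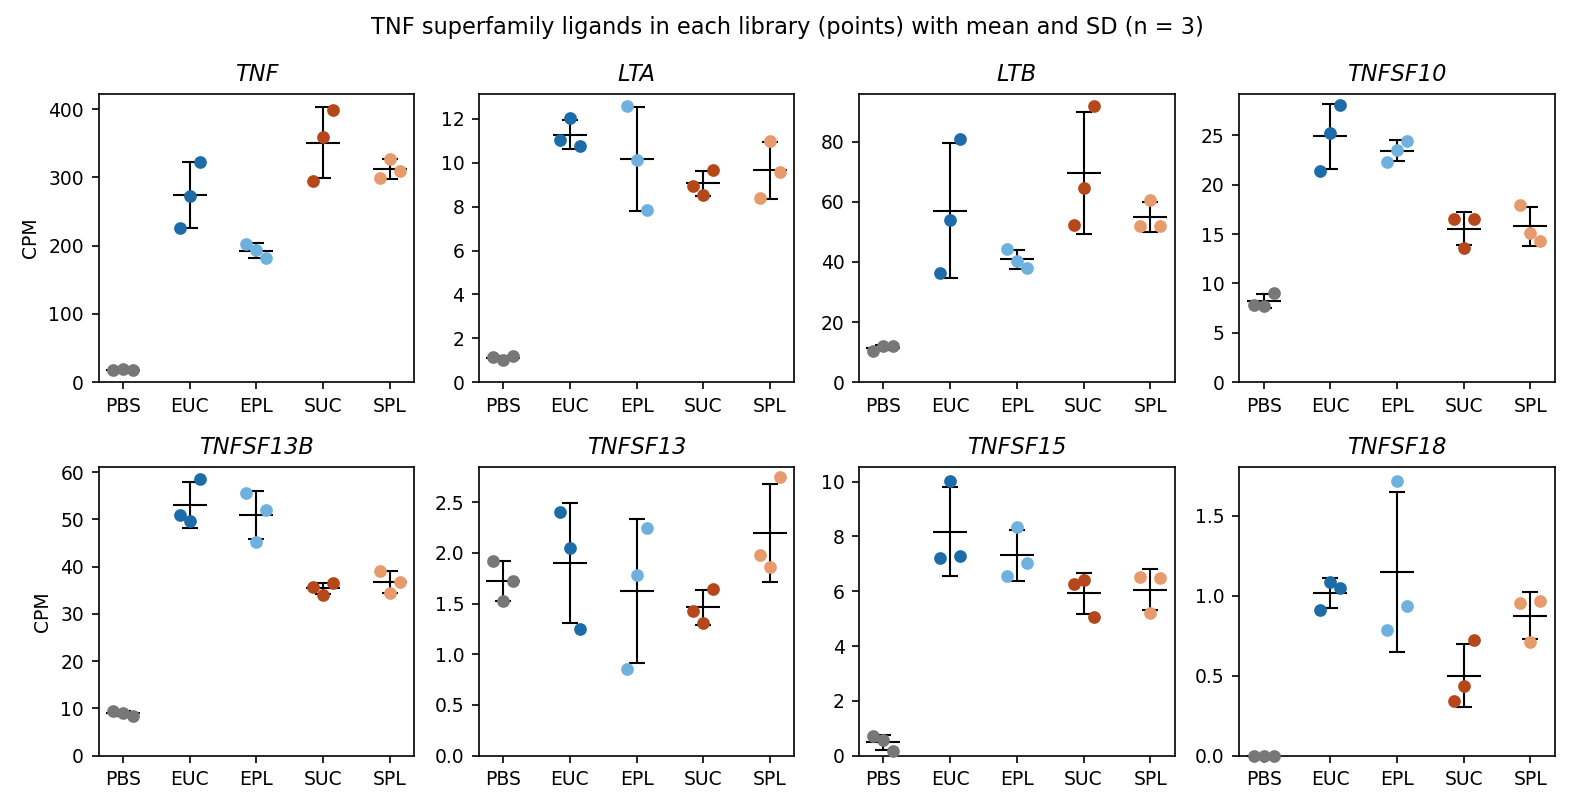
CPM of each ligand in every library (points, in the order of replicates 1 to 3) with the mean and SD of each group (n = 3), each panel on its own linear axis from 0. All stimulated libraries lie above all PBS libraries except for *TNFSF13*, where the groups overlap between 0.852 and 2.75 CPM.

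*TNF*, the prototype of the family, encodes a cytokine that activates endothelium and leukocytes in inflammation. Its PBS libraries had 18.3, 19.0 and 17.3 CPM. The EUC libraries had 226, 273 and 323 CPM, and the EPL libraries 203, 194 and 181 CPM. The SUC libraries had 295, 359 and 400 CPM, and the SPL libraries 299.9, 327.6 and 309.5 CPM. Every stimulated library was thus far above the PBS libraries, and the UC groups spread more than the PL groups. The log2 fold change (edgeR) was 3.91 ± 0.137 (SE) in EUC, a 15.1-fold rise, and 3.40 ± 0.134 in EPL, a 10.6-fold rise. It was 4.27 ± 0.138 in SUC (19.3-fold) and 4.10 ± 0.138 in SPL (17.2-fold). The adjusted p (edgeR) was at most 1.81e-12 in the 4 groups.

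*LTA* encodes lymphotoxin alpha, which is secreted as a trimer that binds the TNF receptors and also joins *LTB* on the membrane. It had 1.15, 0.998 and 1.19 CPM in the PBS libraries, from 17 to 20 counts each. The EUC libraries had 11.0, 12.0 and 10.8 CPM, the EPL libraries 12.6, 10.1 and 7.86, the SUC libraries 8.94, 8.55 and 9.69, and the SPL libraries 8.42, 11.0 and 9.57. The stimulated groups overlapped each other, other than EUC and SUC, and all of their libraries were above PBS. The overlap of EUC and SPL was narrow, with EUC3 at 10.8 CPM and SPL2 at 11.0 CPM. Against PBS, *LTA* rose by 3.33 ± 0.199 on the log2 scale for EUC, 3.18 ± 0.200 for EPL, 3.02 ± 0.202 for SUC and 3.11 ± 0.201 for SPL, or 8.09-fold to 10.1-fold. An antisense long noncoding RNA (ENSG00000289406, 10 to 54 counts per library) overlaps *LTA* without sharing exon bases, and whether counting used the strand is not stated, so reads of the pair cannot be told apart with certainty.

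*LTB* encodes lymphotoxin beta, which anchors the lymphotoxin heterotrimer in the membrane and acts on the lymphotoxin beta receptor. Its PBS libraries had 10.4, 11.9 and 12.0 CPM. The EUC libraries had 36.2, 54.0 and 80.7 CPM and the SUC libraries 52.4, 64.5 and 91.9 CPM, while the EPL libraries had 44.3, 40.3 and 38.0 CPM and the SPL libraries 52.1, 60.7 and 52.0 CPM. EUC3, EPL1 and SUC3, which belong to the cluster of 4 libraries named above, were the highest of their groups for both *LTB* and *TNF*. *LTB* rose by 2.31 ± 0.242 on the log2 scale for EUC, 1.83 ± 0.242 for EPL, 2.60 ± 0.243 for SUC and 2.26 ± 0.242 for SPL, or 3.56-fold to 6.07-fold. With the 4 libraries aside, the values were 1.65 for EUC, 1.76 for EPL, 2.35 for SUC and 2.26 for SPL, and each was called. The part of these libraries in the spread was not tested further.

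*TNFSF10* encodes TRAIL, which can kill cells through death receptors. It had 7.86, 7.69 and 8.99 CPM in PBS libraries. The EUC libraries had 21.4, 25.2 and 28.0 CPM and the EPL libraries 22.3, 23.5 and 24.4 CPM, against 16.5, 13.6 and 16.5 CPM in SUC and 18.0, 15.1 and 14.3 CPM in SPL. No library of an *E. coli* group overlapped one of an *S. aureus* group. The rise on the log2 scale was 1.60 ± 0.129 in EUC and 1.52 ± 0.129 in EPL, past the fold threshold. It was 0.92 ± 0.131 in SUC and 0.95 ± 0.131 in SPL, 1.90-fold and 1.93-fold, with an adjusted p (edgeR) of 3.08e-05 and 2.02e-05. These values fell just short of the 2-fold threshold, and 1 library decided the call. Without NC3 the log2 fold change was 1.00 in SUC and 1.03 in SPL, without SUC2 it was 1.02 in SUC, and without SPL3 it was 1.02 in SPL, all of which were called.

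*TNFSF13B* encodes BAFF, a survival factor of B cells that myeloid cells are known to make. Its PBS libraries had 9.46, 9.04 and 8.33 CPM. The EUC libraries had 50.9, 49.6 and 58.6 CPM and the EPL libraries 55.5, 45.3 and 51.9, while the SUC libraries had 35.7, 34.1 and 36.5 and the SPL libraries 39.0, 34.3 and 36.8. As for *TNFSF10*, the libraries of the *E. coli* groups were all above those of the *S. aureus* groups, which were all above PBS. BAFF messenger rose by 2.57 ± 0.106 on the log2 scale for EUC, 2.51 ± 0.106 for EPL, 1.98 ± 0.106 for SUC and 2.04 ± 0.106 for SPL, or 5.93-fold, 5.69-fold, 3.96-fold and 4.10-fold. It had the smallest standard errors of the 8 members in these comparisons.

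*TNFSF13* encodes APRIL, a relative of BAFF that binds *TNFRSF13B* and *TNFRSF17*. It was low throughout, with 13 to 40 counts per library. The PBS libraries had 1.92, 1.53 and 1.73 CPM, the EUC libraries 2.40, 2.05 and 1.25, the EPL libraries 0.852, 1.78 and 2.24, the SUC libraries 1.43, 1.31 and 1.65, and the SPL libraries 1.98, 1.87 and 2.75. Each stimulated group overlapped PBS. Its log2 fold changes were 0.14 (95% interval -0.53 to 0.82) for EUC, -0.077 (-0.76 to 0.61) for EPL, -0.23 (-0.93 to 0.47) for SUC and 0.35 (-0.32 to 1.02) for SPL, with an adjusted p (edgeR) of at least 0.442. These intervals leave out a 2-fold change in EUC, EPL and SUC, and a 2-fold fall but not a 2-fold rise in SPL. Of its 2276 exon bases, 1263 (55.5%) are shared with the read-through gene *TNFSF12-TNFSF13*, which had 0 counts in every library. Per kb of the 1013 bases that are not shared, *TNFSF13* had 1.70 ± 0.192 CPM in PBS cells, against 0.757 over all its bases. In EUC it had 1.87 ± 0.584 on that scale, beside 1.05 ± 0.207 CPM per kb for *TNFSF15*. Its level and its place in the order therefore depend on how shared reads were counted, which was not tested.

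*TNFSF15* encodes TL1A, a ligand of *TNFRSF25* on lymphocytes. It had 0.703, 0.587 and 0.179 CPM in the PBS libraries, which were 11, 10 and 3 counts. The EUC libraries had 7.21, 10.0 and 7.29 CPM and the EPL libraries 6.55, 8.33 and 7.05 CPM. The SUC libraries had 6.28, 6.43 and 5.08 CPM and the SPL libraries 6.51, 5.21 and 6.47 CPM. The lowest stimulated library thus had 77 counts and the highest PBS library 11. *TNFSF15* rose by 4.05 ± 0.286 on the log2 scale for EUC, 3.89 ± 0.289 for EPL, 3.59 ± 0.295 for SUC and 3.62 ± 0.294 for SPL, or 12.0-fold to 16.6-fold. These folds rest on 24 counts over the 3 PBS libraries, so their 95% intervals are wide, from 10.9-fold to 25.3-fold in EUC.

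*TNFSF18* encodes the ligand of GITR, a costimulatory receptor of T cells. It had no count in any PBS library, and 14, 17 and 16 counts in the EUC libraries, 12, 27 and 15 for EPL, 5, 7 and 11 for SUC and 15, 11 and 14 for SPL. All stimulated libraries thus had counts. A count of 0 over the 3 PBS libraries allows up to 3 counts, or 0.0606 CPM. Against this limit, *TNFSF18* was at least 16.8-fold higher for EUC, at least 18.9-fold higher for EPL, at least 8.27-fold higher for SUC and at least 14.4-fold higher for SPL, where the limit covers counting error only. It was called higher in each group with an adjusted p (edgeR) of 1.03e-05, 6.78e-06, 0.00024 and 2.47e-05. With no PBS count, *TNFSF18* entered the test through stimulated libraries alone, so these p-values are not independent support for a rise. When only SUC and PBS libraries were in the fit, its counts did not pass the filter, and SUC then had 5 members called.

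**Figure D3:**
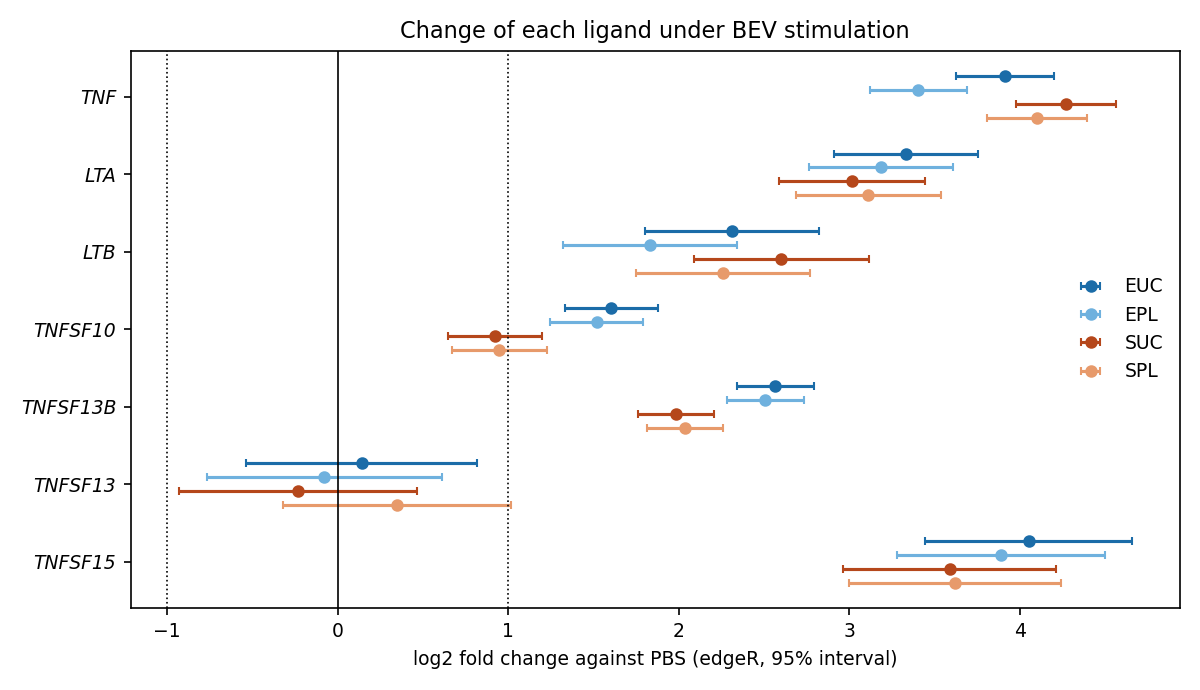
Log2 fold change of 7 ligands against PBS for each stimulated group (edgeR, point with 95% interval), with dotted lines at the 2-fold thresholds. *TNFSF18* is left out because it had no count in PBS cells. *TNFSF10* straddles the threshold in SUC and SPL, and *TNFSF13* spans 0 in every group.

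The next question was whether the way of isolating the BEVs mattered for these genes. For *E. coli* BEVs, 0 of 8 members were called between EPL and EUC, and 0 of all tested genes were (0%), with the smallest adjusted p at 0.947 (edgeR). At an unadjusted p under 0.05 there were 604 genes, *TNF* and *LTB* among them, and DESeq2 also called none of the members. *TNF* was lower in EPL than in EUC in every library (193 against 274 CPM as means), with a log2 fold change of -0.51 (95% interval -0.76 to -0.26), an unadjusted p of 0.000535 and an adjusted p of 0.947 (edgeR). In all, 3.26% of tested genes had every EPL library below every EUC library. *LTB* had a log2 fold change of -0.48 (-0.95 to -0.0096) with overlapping groups. With the 4 libraries that cluster apart set aside, the value was -0.27 for *TNF* and 0.11 for *LTB*, so that the direction of *LTB* turned. The 6 other members differed by between -0.22 and 0.17 on the log2 scale. For *TNFSF13B*, the 95% interval was 0.835-fold to 1.10-fold.

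For *S. aureus* BEVs, 0 of 8 members were called between SPL and SUC, and 1 gene of all tested was (0.00581%). Of the members 0 had an unadjusted p under 0.05, against 1000 genes in all, and DESeq2 called 0 members. *TNF* had a log2 fold change of -0.17 (95% interval -0.42 to 0.080), *LTB* of -0.34 (-0.81 to 0.12), *TNFSF10* of 0.025 (-0.24 to 0.29) and *TNFSF13B* of 0.052 (-0.15 to 0.26). *TNFSF13* was higher in every SPL library than in every SUC library, as 6.86% of tested genes were, at 0.58 (-0.11 to 1.27) with an adjusted p of 0.86 (edgeR). *TNFSF18* had 0.79 (-0.12 to 1.71). The effect of PL against UC was also compared between the species. No member was called (0% of all genes), each with an adjusted p of 1, and the largest values were 0.80 (-0.17 to 1.77) for *TNFSF13* and 0.62 (-0.60 to 1.84) for *TNFSF18*.

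The last comparison set *E. coli* BEVs at 1 μg/mL against *S. aureus* BEVs at 10 μg/mL over both isolation methods. No member passed the 2-fold threshold, where 0.686% of all genes were called in either direction. With the same adjusted p and no fold threshold, 3 of 8 members passed, against 3.87% of all genes, and they moved in opposite directions. *TNF* was lower with *E. coli* BEVs, and *TNFSF10* and *TNFSF13B* were higher.

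**Figure D4:**
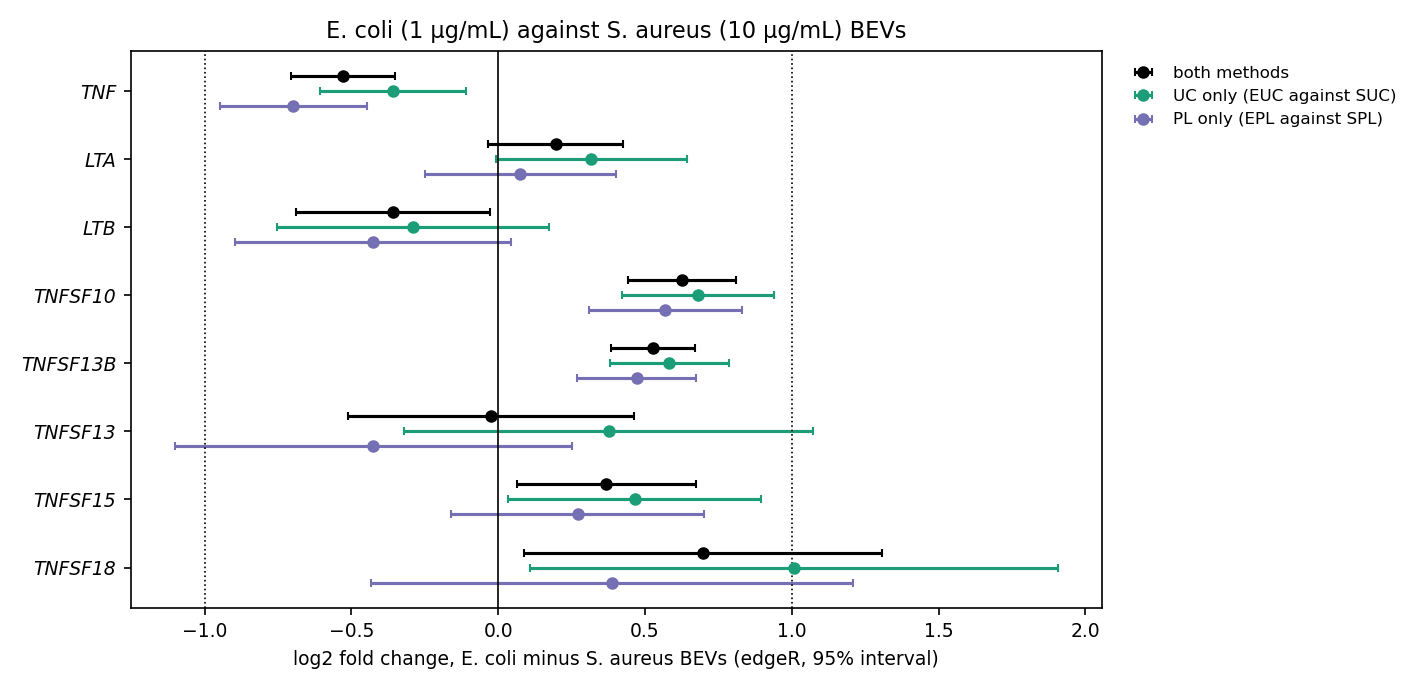
Log2 fold change of each ligand between *E. coli* and *S. aureus* BEVs (edgeR, point with 95% interval), for both isolation methods together and within UC and PL, with dotted lines at the 2-fold thresholds. *TNF* lies below 0 at -0.53, and *TNFSF10* at 0.63 and *TNFSF13B* at 0.53 lie above 0, each with intervals on the same side within UC and within PL.

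*TNF* averaged 233 CPM in the 6 *E. coli* libraries and 332 CPM in the 6 *S. aureus* libraries, a log2 fold change of -0.53 (95% interval -0.71 to -0.35) with an adjusted p of 0.000563 (edgeR). The groups overlapped, since EUC3 (323 CPM) was above SUC1 (295 CPM). Within PL the libraries did not overlap, and the log2 fold change was -0.70 (-0.95 to -0.45) with an adjusted p of 0.0079 (edgeR), while within UC it was -0.36 (-0.61 to -0.11) with an adjusted p of 0.11. With the 4 libraries aside, the value over both methods was -0.64.

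*TNFSF10* averaged 24.2 CPM with *E. coli* BEVs and 15.7 CPM with *S. aureus* BEVs, a log2 fold change of 0.63 (0.44 to 0.81) with an adjusted p of 0.000171 (edgeR). *TNFSF13B* averaged 52.0 and 36.0 CPM, a log2 fold change of 0.53 (0.38 to 0.67) with an adjusted p of 8.2e-05 (edgeR). For both, and for *TNFSF15*, all *E. coli* libraries were above all *S. aureus* libraries, as for 3.05% of tested genes. Within UC, *TNFSF10* differed by 0.68 (0.42 to 0.94, adjusted p 0.00266 by edgeR) and *TNFSF13B* by 0.58 (0.38 to 0.79, adjusted p 0.00121). Within PL, *TNFSF10* differed by 0.57 (0.31 to 0.83, adjusted p 0.0318) and *TNFSF13B* by 0.47 (0.27 to 0.68, adjusted p 0.0216). These are the members whose printed windows hold the interferon core, a description that was not tested.

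The other members were less clearly separated. *LTB* averaged 48.9 CPM with *E. coli* BEVs and 62.3 CPM with *S. aureus* BEVs, at -0.36 (-0.69 to -0.028) with an adjusted p of 0.241 (edgeR). With the 4 libraries aside it was -0.60 with an adjusted p of 8.26e-07, and with no filter on low counts it was -0.37 with an adjusted p of 0.000504, so the call without a fold threshold depends on these choices. *TNFSF15* had 0.37 (0.063 to 0.67, adjusted p 0.176), *TNFSF18* 0.70 (0.088 to 1.31, adjusted p 0.209), *LTA* 0.20 (-0.035 to 0.43, adjusted p 0.408) and *TNFSF13* -0.024 (-0.51 to 0.46, adjusted p 0.981), all by edgeR.

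The receptors of these ligands were counted as a list of 15 genes, of which 11 were tested. The number called higher was 4 for EUC, 5 for EPL, 3 for SUC and 4 for SPL, and none was lower, with a median log2 fold change of 0.54, 0.48, 0.33 and 0.43. Of all tested genes, 9.43%, 9.38%, 6.82% and 7.76% were called higher in the same order. *TNFRSF18* and *TNFRSF11B*, called in all 4 groups, passed the filter on low counts only through stimulated libraries. Their being tested thus depended on their level there, so the shares of all genes are given for scale only. *TNFRSF18*, the GITR receptor that *TNFSF18* binds, rose from 0.162 ± 0.0914 CPM in PBS cells to 66.5 ± 10.8 and 54.5 ± 18.6 in EUC and EPL, and to 17.4 ± 4.18 and 27.1 ± 3.52 in SUC and SPL. Ligand and receptor were thus both at or near 0 in non-stimulated cells and counted in every stimulated library. *TNFRSF18* was also the one receptor called between the species, at 1.47 ± 0.151 on the log2 scale with an adjusted p of 9.93e-06 (edgeR). Between the species 0.686% of all tested genes were called.

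*TNFRSF1B*, the TNF receptor of leukocytes, rose from 88.9 CPM to 366, 349, 196 and 250 CPM in EUC, EPL, SUC and SPL, while *TNFRSF1A*, the widely expressed TNF receptor with a death domain, had 93.7 CPM in PBS cells and 118 to 136 CPM after stimulation, under the fold threshold in each. *TNFRSF11B*, a soluble decoy that binds TRAIL, was called higher in all 4 groups from 0.569 CPM to between 2.03 and 3.03 CPM. *TNFRSF10B*, a TRAIL death receptor, was called in EUC, EPL and SPL, with 36.1 CPM in PBS cells and 76.8, 78.8 and 76.0 CPM there. In SUC it had 67.9 CPM, a 1.88-fold rise under the threshold. The decoy *TNFRSF10D* was called in EPL alone, at 1.02 on the log2 scale against 0.91 in EUC. *LTBR*, the lymphotoxin beta receptor, was not called, at 65.5 CPM in PBS cells and 73.3 to 80.9 CPM after stimulation. Of the BAFF and APRIL receptors, *TNFRSF13C* had 1.80 to 2.39 CPM as group means, *TNFRSF17* at most 1 count and *TNFRSF13B* 0 counts. *TNFRSF6B*, a soluble decoy of TL1A, was listed at 0, and all of its 1140 exon bases are shared with the read-through gene *RTEL1-TNFRSF6B*, which had up to 120 counts.

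Of 10 other ligands of the superfamily 5 were tested, and no more than 1 was called higher in any group, where 6.82% to 9.43% of all tested genes were. *CD70*, the ligand of CD27, was called higher in EUC, EPL and SPL, from 137 CPM to 331, 297 and 278 CPM. In SUC it had 273 CPM, a 1.99-fold rise just under the threshold. *TNFSF14*, known as LIGHT, was called lower in EUC (8.46 CPM) and EPL (11.1 CPM) than in PBS cells (22.3 CPM). All libraries of SUC (13.4 CPM) and SPL (14.1 CPM) were also below PBS, short of the fold threshold. *TNFSF11*, known as RANKL, was called lower in EPL (0.913 CPM) and SPL (0.721 CPM) than in PBS cells (2.34 CPM). Libraries of EUC (1.29 CPM) and SUC (1.26 CPM) were also all below PBS, without a call. *TNFSF9*, the ligand of 4-1BB, had log2 fold changes of 0.64 to 0.96, and *TNFSF4* had at most 0.697 CPM as a group mean. *CD40LG*, *FASLG*, *TNFSF8*, *TNFSF12* and *EDA* did not pass the filter, with at most 12 counts in any library. *TNFSF12* shares 12.1% of its exon bases with *TNFSF12-TNFSF13* and had at most 1 count.

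None of the 7 genes for ligand cleavage was called in any group. *ADAM17*, the sheddase of TNF, had 43.6 CPM in PBS cells and 74.4 to 79.6 CPM after stimulation, a log2 fold change of 0.77 to 0.87. *FURIN*, which processes BAFF and APRIL, had 149 CPM and 145 to 182 CPM. Among 10 regulators of TNF messenger stability 2 were called, both higher in all 4 groups, as were 6.33% of all tested genes. The list is too short to set its count against that share. *ZC3H12A*, an endonuclease that degrades inflammatory messengers, rose from 14.3 CPM to between 315 and 338 CPM, and *ZFP36L1*, an ARE-binding decay factor, rose from 2.01 CPM to between 15.5 and 25.5 CPM. Its relative *ZFP36*, the best known decay factor of TNF messenger, had 224 CPM in PBS cells and 176 to 230 CPM after stimulation.

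Of 20 genes of the TNF receptor complex and NF-kappa B, 10 were called higher in EUC and in EPL and 9 in SUC and in SPL. None was lower, and the median log2 fold change was 0.71 to 1.03. Of all tested genes 6.82% to 9.43% were called higher, and this list, too, was chosen with earlier results known. *BIRC3*, a ubiquitin ligase of the complex, rose from 0.179 CPM to between 28.6 and 43.2 CPM. It passed the filter on low counts only through stimulated libraries, so its being tested depended on its level there. *TNFAIP3*, the inhibitor A20, rose from 14.8 CPM to between 499 and 578 CPM. *TRAF1* rose in all 4 groups and was the one gene of this list called between the species, with 105 CPM for *E. coli* and 42.4 CPM for *S. aureus* BEVs at 1.32 on the log2 scale.

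For each member the 3 genes with the most similar profile were taken among 14522 genes, ranked by Pearson's r between log2 CPM profiles across the 15 libraries. These libraries hold the same contrast of stimulated against PBS cells, so that high values are common and describe likeness only. *TNF* was nearest to *PIM1*, *ALAS1* and *OSGIN1* (r = 0.994 each), *LTA* to *FERMT3*, *SLC2A6* and *TMEM138* (0.995, 0.995 and 0.994) and *LTB* to *EI24*, *MYL9* and *ALOX5AP* (0.987, 0.98 and 0.979). *RAB10* and *PIM2* were among the nearest to *TNFSF10* (0.979 and 0.978). *TNFSF13B* was nearest to ENSG00000285744, ENSG00000287097 and *MARCKS* (0.996 each), and *TNFSF15* to *COL24A1*, *KMO* and *TFAP2A* (0.991, 0.99 and 0.987). *TNFSF13* had lower values, with ENSG00000279089, *MED12L* and *C1orf50* nearest at 0.82, 0.795 and 0.793. *TNFSF18* was too low to be compared in this way.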

How the data were processed

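The authors extracted RNA with Trizol, built libraries with a NEB kit and aligned reads to hg38 with HISAT2 2.1.0. They deposited whole-number read counts per Ensembl gene, without normalization. The submitters' processing notes also name FastQC 0.11.5, StringTie 1.3.3b, DESeq 1.28.0 and featureCounts. The annotation release and strand setting of the counting are not given in the sources used. Libraries were grouped by their titles.

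The deposited counts (14399421 to 16637345 per library) were filtered with filterByExpr, scaled by TMM and fitted over all 15 libraries with the quasi-likelihood test of edgeR 4.0.16 in R 4.3.3. The script was tested on simulated data. Adjusted p-values (Benjamini-Hochberg) cover all 17198 tested genes. Calls needed an adjusted p no larger than 0.01 with a log2 fold change of 1 or more in either direction. Standard errors follow from the F statistic. DESeq2 1.42.0, other scalings, no filter and left-out libraries were alternatives. Log2 CPM used a prior count of 2. Lengths and positions come from GENCODE release 44 on hg38. Values of a gene with no PBS count are limits from 3 counts.

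The members and gene lists were chosen with earlier results of these data known. All members are named, with genes that overlap or neighbour them and, for members with a mean of at least 1 CPM, the 3 genes of most similar profile, of which 1 is not reported here. Of each other list, up to 2 genes that rose and 2 that fell with the largest mean change are named, if called in all 4 groups with a mean of at least 1 CPM. Any further gene was picked with its values in view.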

Additional observations from a re-analysis of the deposited data

Results flagged for a closer look

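*TNF*, *TNFSF10* and *TNFSF13B* were singled out because their response differed between *E. coli* and *S. aureus* BEVs by the edgeR test of the difference itself. The log2 fold change was -0.53 for *TNF* (adjusted p 0.000563 by edgeR), 0.63 for *TNFSF10* (adjusted p 0.000171 by edgeR) and 0.53 for *TNFSF13B* (adjusted p 8.2e-05 by edgeR). *TNF* was higher with *S. aureus* BEVs while the other two were higher with *E. coli* BEVs. Species and dose cannot be told apart.

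*TNFSF13* was singled out because every SPL library was above and every SUC library below the PBS mean of 1.72 CPM, with a difference of means (SPL minus SUC) of 0.735 CPM. The difference of SPL and SUC was not called, with an adjusted p of 0.86 (edgeR).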

How the results depend on the processing

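The numbers of members called (7, 7, 6 and 6 against PBS, 0 between methods, between species and for the difference of methods) were the same with RLE or upper-quartile scaling, without the filter, with DESeq2, with the replicate block and, added after seeing the data, without EUC2, EUC3, EPL1 and SUC3. With only the compared groups in the fit, SUC had 5. Without the fold threshold SUC and SPL had 7 and the species contrast 3. Leaving out each replicate gave 6 to 7 in SUC and in SPL and moved no other count. For *TNF*, *TNFSF10* and *TNFSF13B* the species difference kept an adjusted p of at most 0.00283, 0.00105 and 0.000608 (edgeR) over left-out replicates.

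Whether replicate numbers pair the libraries was not settled. Of 30 same-number correlations of deviations 7 were over 0.1, with a range of -0.452 to 0.525. Their mean was 0.00949, against -0.00357 for different numbers. Closest to their own number were 9 of 15 libraries, more than an even split over the replicate numbers would give. With the replicate block, 7, 7, 6 and 6 members were called and 0 in the other comparisons.

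Directions turned only for values that were not called. With the 4 libraries aside, these were *TNFSF13* EPL against PBS (0.22) and between species (0.34), in EPL against EUC *LTB* (0.11), *TNFSF10* (0.16) and *TNFSF15* (0.092), *TNFSF15* SPL against SUC (-0.067), and for the difference of methods *LTB* (-0.20), *TNFSF10* (-0.088) and *TNFSF15* (-0.16). Within UC *TNFSF13* between species was 0.38. The cause was not tested. Over left-out replicates, *TNFSF13* ranged from -0.061 to 0.37 in EUC and -0.38 to 0.23 in EPL against PBS, -0.52 to 0.083 between EPL and EUC and -0.18 to 0.13 between species. In EPL against EUC *LTA* ranged from -0.33 to 0.0082, *TNFSF10* from -0.18 to 0.0075, *TNFSF13B* from -0.13 to 0.018, *TNFSF15* from -0.27 to 0.013 and *TNFSF18* from -0.24 to 0.38. In SPL against SUC *LTA* ranged from -0.011 to 0.18, *TNFSF10* from -0.080 to 0.093 and *TNFSF15* from -0.068 to 0.13. *LTB* ranged from -0.20 to 0.39 for the difference of methods. Without TMM factors the PBS means of *TNF* and *TNFSF13B* were 19.6 and 9.62 CPM.

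Depth limits *TNFSF13*, *TNFSF18* and *TNFSF15* most, with at most 40 counts per library, at most 27, and 3 to 11 in PBS libraries.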
